A study of Mus musculus with 32 samples.

Results

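Shared GATA3 sites free of Bcl11b are intervals where GATA3 had a called peak in both a pro-T-like line and a line of group 2 innate lymphoid cells (ILC2), with no overlapping Bcl11b peak in either. They were chosen from the GATA3 peak list of Scid.adh.2c2 as the peaks that overlapped an ILC2/b6 GATA3 peak by at least 1 bp and no Bcl11b peak of either line. The rule gave 14278 of the 36973 GATA3 peaks of Scid.adh.2c2, which is 38.6%. Of the 17477 GATA3 peaks shared by the lines, 81.7% were free of Bcl11b and the other 3199 overlapped a Bcl11b peak. The choice used the presence of GATA3 and Bcl11b peaks, so these counts and the peak scores are descriptions and carry no test.

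GATA3 is a zinc finger transcription factor that binds short GATA motifs and is needed both for early T-cell development and for ILC2. Bcl11b is another zinc finger factor, required for commitment to the T lineage and for ILC2 function, and Runx1 and Runx3 are DNA-binding factors that act with Cbfb and are frequent partners of both. GATA3 occupies many sites far from genes, and a site where it binds without a given partner shows where its own binding does not coincide with that partner's peaks.

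Scid.adh.2c2 is a mouse lymphoma line of pro-T-like cells. ILC2/b6 is a mouse ILC2 line, and its medium held 3 cytokines (IL-2, IL-7, IL-33) at 10 ng/ml. GATA3, Bcl11b, Runx1 and Runx3 were each mapped by ChIP-seq in both lines without any guide, with 2 libraries per factor and line merged by the authors into 1 peak list. RNA-seq compared cells transduced with sgBcl11b-CFP, a guide against Bcl11b, with cells transduced with sgControl-CFP, with 2 libraries per guide and line, and the source of the Cas9 nuclease and the number of clones are not given in the sources used here. Both models are established lines, so the groups hold no animals, and the labels do not say whether the 2 libraries of a group came from separate cultures. p-values therefore measure the spread between these libraries, which may be technical.

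The RNA libraries held 34.7 to 43.8 M reads (M, mega). Of 11 pro-T markers, 10 reached 1 RPKM (reads per kilobase of transcript, scaled to depth) in both Scid.adh.2c2 control libraries, the exception being Rag2, and all 11 ILC2 markers did so in ILC2/b6. Defining genes of B, ILC3, myeloid, erythroid and stromal cells reached that level for at most 1 gene per list and line, and 2 of 6 NK or ILC1 genes did so in each line. The summed level of 5 mast cell genes was 21.4 to 23.5 RPKM under sgCont and 62.5 to 62.7 under sgBcl11b in Scid.adh.2c2, and 5.99 to 6.50 against 46.7 to 47.0 RPKM in ILC2/b6, with 1 gene of the list (Cpa3 in Scid.adh.2c2, Tpsb2 in ILC2/b6) at 1 RPKM or more under sgCont in each line. In Scid.adh.2c2 the summed levels were also higher under sgBcl11b for myeloid genes (6.15 to 6.74 RPKM, against 1.72 to 1.99) and erythroid genes (4.04 to 4.32, against 0.409 to 0.690), and lower for stromal genes (1.33 to 1.46, against 5.53 to 5.97) and pro-T genes (743.9 to 747.2, against 1254 to 1315). In ILC2/b6 they were higher for erythroid genes (27.2 to 27.3 RPKM, against 15.3 to 17.0) and stromal genes (11.1 to 12.8, against 5.50 to 6.16), and lower for the ILC2 genes (6006 to 6161, against 8428 to 8600) and NK or ILC1 genes (644.3 to 688.6, against 809.7 to 810.9). The part of such cells or programmes in the changes below was not tested. Bcl11b mRNA read 47.0 and 49.5 RPKM under sgCont in Scid.adh.2c2 and 47.1 and 46.8 under sgBcl11b. In ILC2/b6 it read 6.85 and 6.33 RPKM under sgCont and 7.04 and 7.24 under sgBcl11b. A guide can disrupt a protein without lowering its mRNA, so these values do not check the loss of Bcl11b.

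Sequence is shown for sites centred in the 250 bases before a gene start, where a GATA motif can be read off the promoter. There were 71 such sites, and 41 of their genes had exactly 1 promoter entry in RefSeq (GRCm38.p6, matched by gene ID). The peaks were called on mm9, so the promoter sequences were matched by gene and not by position. The 3 genes with the highest Scid.adh.2c2 peak score and a GATA motif are shown, together with the highest-scoring gene without one, each 5′ to 3′ on the gene's strand and ending at the base before the start, with the GATA motif in capitals.
Lhx8 (chr3:154330561-154330810, minus strand): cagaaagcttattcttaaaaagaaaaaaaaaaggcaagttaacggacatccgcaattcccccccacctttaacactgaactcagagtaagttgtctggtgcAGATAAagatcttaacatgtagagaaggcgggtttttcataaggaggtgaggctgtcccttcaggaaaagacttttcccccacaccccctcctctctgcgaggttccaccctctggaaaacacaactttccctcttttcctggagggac
Hist1h3c (chr13:23745522-23745771, minus strand): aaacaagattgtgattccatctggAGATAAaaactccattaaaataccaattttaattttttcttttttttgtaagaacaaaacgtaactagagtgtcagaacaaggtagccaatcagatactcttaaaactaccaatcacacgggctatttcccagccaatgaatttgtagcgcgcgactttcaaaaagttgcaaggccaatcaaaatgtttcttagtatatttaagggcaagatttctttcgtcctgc
Mrps25 (chr6:92184024-92184273, minus strand): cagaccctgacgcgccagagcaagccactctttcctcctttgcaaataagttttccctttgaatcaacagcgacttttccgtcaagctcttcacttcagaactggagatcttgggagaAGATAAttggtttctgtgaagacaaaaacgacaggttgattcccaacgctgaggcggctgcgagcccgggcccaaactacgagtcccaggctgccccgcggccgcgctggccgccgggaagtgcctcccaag
Dio2 (chr12:90739039-90739288, minus strand): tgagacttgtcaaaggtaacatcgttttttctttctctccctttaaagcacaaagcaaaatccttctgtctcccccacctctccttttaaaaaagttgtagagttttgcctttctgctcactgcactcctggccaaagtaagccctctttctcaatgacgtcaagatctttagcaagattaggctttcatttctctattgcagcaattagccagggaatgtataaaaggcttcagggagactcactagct

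The Lhx8 peak (a LIM homeobox gene) was centred 129 bases before the start and the motif AGATAA begins 149 bases before it. For Hist1h3c, a histone H3 gene, the peak centre lay 230 bases and the motif 226 bases before the start. For Mrps25, a mitochondrial ribosomal protein gene, these distances were 145 and 132 bases. The Dio2 peak (a thyroid hormone deiodinase gene) had GATA3 scores of 127.2 in Scid.adh.2c2 and 34.3 in ILC2/b6, and the letters searched for do not occur in this window. The search used AGATAA or AGATAG and, as another pair, TGATAA or TGATAG, on both strands. A match was present in 24 of the 41 promoters (58.5%), against 27.6% of the 22862 genes with 1 promoter entry. The share was 47.9% of the 96 promoters at shared GATA3 sites with a Bcl11b peak and 64.3% of the 14 at Scid.adh.2c2-only sites free of Bcl11b. The Runx motif TGTGGT, searched on both strands, was present in 19.5% of the 41 promoters and in 14.3% of all. A match is a description of these letters and not evidence of a bound site.

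Most of the sites had moderate peak scores, the number the authors' peak caller gave each peak. In Scid.adh.2c2 the median score was 29.6, with quartiles of 21.4 and 45.0. In ILC2/b6 the overlapping peaks had a median of 24.6, with quartiles of 18.6 and 36.5. The score is the authors' own, differs in scale between lists and ranks peaks only within a list. Shared sites with Bcl11b had higher medians in the same lists, 51.5 in Scid.adh.2c2 and 61.0 in ILC2/b6, and Scid.adh.2c2-only sites free of Bcl11b had a median of 20.2. The lists end at a score of 15, and 5893 of the 14278 sites lay under 20 in at least 1 of the lists. The overlap between the peaks of the 2 lines was a median of 289 bp.

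**Figure D1:**
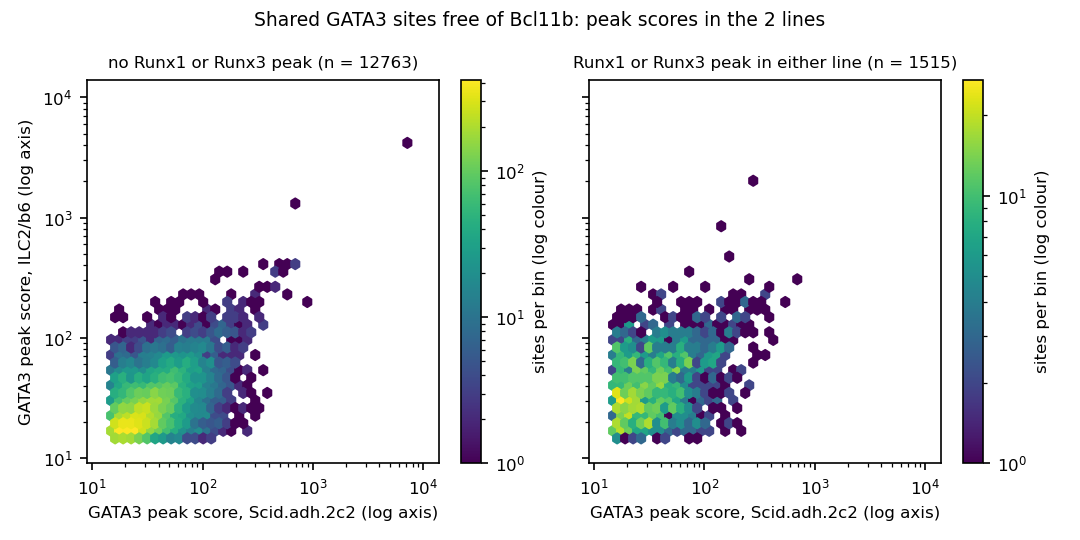
GATA3 peak score of each shared site free of Bcl11b in Scid.adh.2c2 (x, log axis) against ILC2/b6 (y, log axis), with colour giving the number of sites per hexagon on a log scale, for 12763 sites without and 1515 with a Runx1 or Runx3 peak in either line. Most sites lie below a score of 100 in both lines, and 1 site without a Runx peak stands far above the others at 7200.2 and 4427.8.

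The share of shared sites that was free of Bcl11b depended on the GATA3 score. It was 87.4% for Scid.adh.2c2 scores of 15 to 20 and 89.4% for scores of 20 to 30. It was 75.3% for scores of 50 to 100. Above 100, 682 sites were free of Bcl11b, 43.5% of the shared sites in that range. Around the edge of the rule, 29 members had a Bcl11b peak 10 bp away or less, with median scores of 47.0 in Scid.adh.2c2 and 53.4 in ILC2/b6. The 22 shared sites that overlapped a Bcl11b peak by 10 bp or less had medians of 41.3 and 56.7. "Free of Bcl11b" means that no peak passed the authors' threshold, and weaker Bcl11b signal there was not analysed here.

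Bcl11b peaks were often in the neighbourhood. A Bcl11b peak of either line lay within 100 bp of 207 sites (1.45%), within 1 kb of 1327 (9.29%) and within 10 kb of 34.5%. The median gap was 22.6 kb. The sites themselves were scattered, with a median spacing of 87.5 kb on the placed chromosomes, and 9.77% had the next site within 10 kb.

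The sites were mainly distal. By the authors' annotation, 7114 were intergenic (49.8%), 6193 intronic (43.4%), 162 exonic and 127 in 3′ untranslated regions. Within 1 kb of a transcript start lay 711 sites, or 4.98%, against 15.04% of shared sites with Bcl11b, 1.81% of Scid.adh.2c2-only sites free of Bcl11b and 5.57% of ILC2/b6-only sites free of Bcl11b. The median distance to the nearest start was 26.8 kb, against 15.8, 45.4 and 25.2 kb in those classes, in the same order. Read from the promoter side, 59.6% of the shared GATA3 sites within 1 kb of a start were free of Bcl11b, compared with 81.7% of all shared sites.

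Runx1 and Runx3 peaks were rare at these sites. A Runx1 or Runx3 peak overlapped 411 sites in Scid.adh.2c2 (2.88%) and 1416 in ILC2/b6 (9.92%), and 12763 sites (89.4%) had neither factor in either line. Of the shared GATA3 sites with Bcl11b, 54.5% had a Runx peak in Scid.adh.2c2 and 84.8% in ILC2/b6. Of the Scid.adh.2c2-only sites free of Bcl11b, 3.42% had one in Scid.adh.2c2 and 1.04% in ILC2/b6, so low Runx shares were not particular to the shared sites. Of the ILC2/b6-only sites free of Bcl11b, 34.5% had a Runx peak in ILC2/b6 and 1.13% in Scid.adh.2c2. Runx3 was the more frequent of the pair, at 2.78% of the sites in Scid.adh.2c2 and 9.57% in ILC2/b6, against 1.14% and 3.65% for Runx1. The Runx lists differed in size, with 13664 Runx1 and 20523 Runx3 peaks in Scid.adh.2c2 and 26258 and 44938 in ILC2/b6. The 4 shares run in the order of these sizes, and the part of list size in them was not tested. Of the 1515 sites with any Runx peak, 1104 had it in ILC2/b6 alone, 99 in Scid.adh.2c2 alone and 312 in both.

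**Figure D2:**
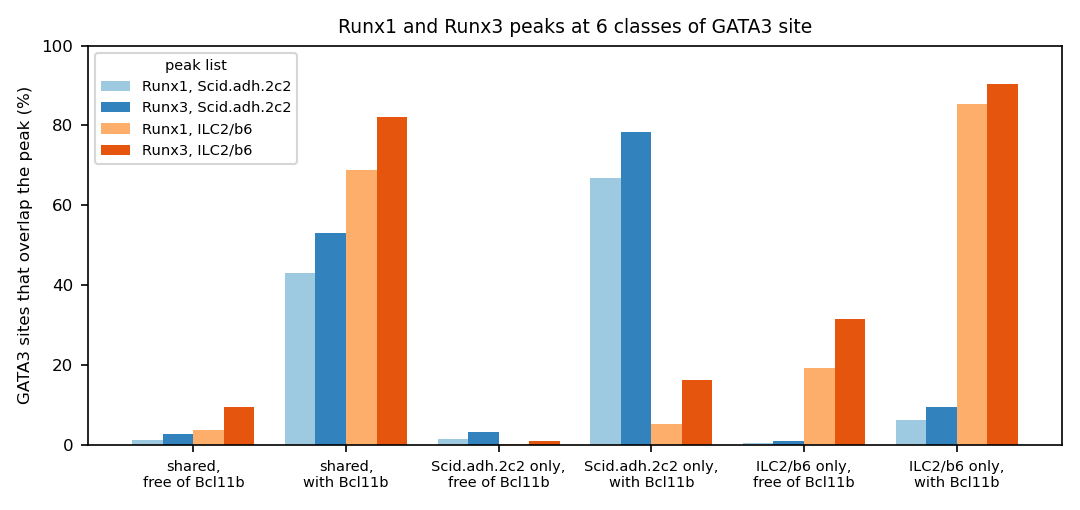
Percent of GATA3 sites that overlap a Runx1 or Runx3 peak (y, percent) in each of 6 classes of GATA3 site (x), with bars for the 4 Runx peak lists. Shared sites free of Bcl11b stay below 10% in all 4 lists, while shared sites with Bcl11b lie between 43.1% and 82.2%.

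The lower Runx overlap was present in every score range compared. Among sites free of Bcl11b, the share with a Scid.adh.2c2 Runx peak was 1.83% for Scid.adh.2c2 GATA3 scores of 15 to 20 and 12.9% above 100. Among shared sites with Bcl11b it was 34.0% and 75.8% in the same ranges. Runx peaks of all 4 lists met at 77 of the sites. The highest-scoring of them lay in an intron of Tdrd1 (chr19:56922418-56922734, mm9), a gene of the piRNA pathway, with GATA3 scores of 265.9 in Scid.adh.2c2 and 2157.7 in ILC2/b6 and a Runx3 score of 2622.1 in ILC2/b6. Next came sites assigned to Csk, a kinase that restrains Src family kinases, at 231.8 and 152.5, and to the ribosomal protein gene Rpl11, at 194.3 and 139.7. A site in an intron of Jak1, the kinase used by many cytokine receptors, scored 181.5 and 111.1. At these 4 sites GATA3 coincided with both Runx factors in both lines.

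Repeats held a large part of the sites. An annotated repeat lay at 6460 of them (45.2%), against 18.1% of shared sites with Bcl11b, 47.3% of Scid.adh.2c2-only sites free of Bcl11b and 31.6% of ILC2/b6-only sites free of Bcl11b. The tandem repeats (TCTA)n and (TAGA)n, whose unit repeated in tandem spells the GATA letters AGATAG, held 1517 sites (10.6%), against 30 of the 3199 shared sites with Bcl11b (0.938%). Their share was 15.1% among Scid.adh.2c2-only and 3.50% among ILC2/b6-only sites free of Bcl11b. Only 36.3% of the 4266 Scid.adh.2c2 GATA3 peaks on these tandem repeats were shared, and 98.1% of those shared were free of Bcl11b.

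MT2_Mm, the long terminal repeat of the endogenous retrovirus MERVL, held 740 sites (5.18%). It held no shared site with Bcl11b, 1.03% of Scid.adh.2c2-only and 1.27% of ILC2/b6-only sites free of Bcl11b. In contrast to the tandem repeats, 80.1% of the 924 Scid.adh.2c2 GATA3 peaks on MT2_Mm were shared, and all 740 of those were free of Bcl11b. RLTR45-int, an internal retroviral sequence, gave 112 shared sites, all free of Bcl11b, out of 134 Scid.adh.2c2 peaks. RSINE1, a short interspersed element, held 250 sites and L1 elements 1228. A Runx peak was present at 1.05% of the sites on the tandem repeats, 0.270% of those on MT2_Mm and none of those on RLTR45-int, against 14.7% of the 7818 sites outside repeats. Reads were 50 nt, and how the authors placed reads that matched several copies of a repeat was not given in the sources used here. The part that such reads play in these counts was not tested.

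**Figure D3:**
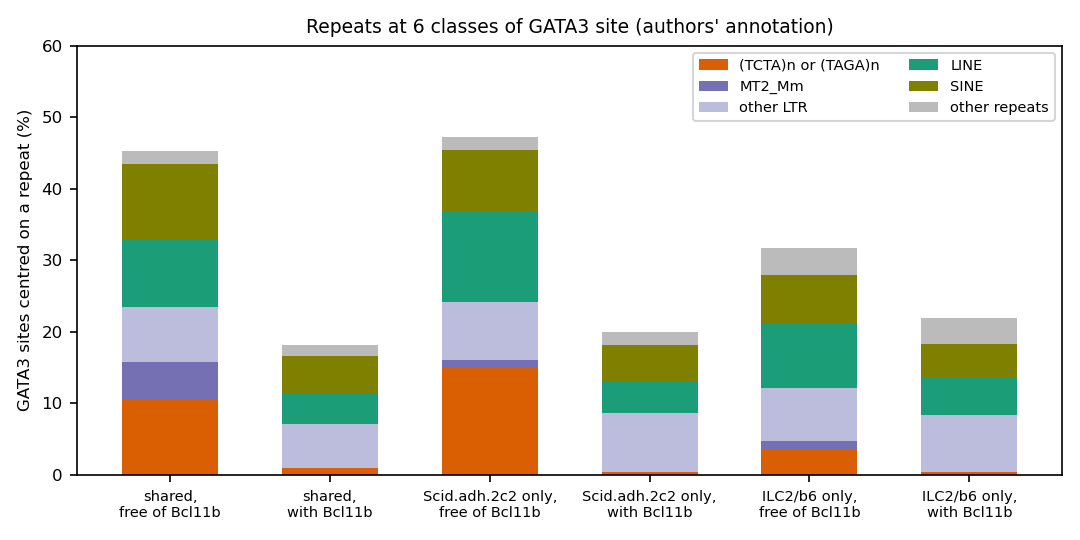
Percent of GATA3 sites annotated to a repeat by the authors (y, percent) in 6 classes of GATA3 site (x), stacked by kind of repeat. Shared sites free of Bcl11b reach 45.2% in all, with 10.6% on (TCTA)n or (TAGA)n and 5.18% on MT2_Mm, while shared sites with Bcl11b reach 18.1%.

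Another 140 of the sites lay on unplaced chromosome pieces. Of these, 78 had exactly the same pair of scores as another of the 14278 sites, against 26.8% of the 14138 sites on placed chromosomes. An example is a pair of MT2_Mm sites assigned to Tagap, a GTPase-activating protein gene of activated T cells, one on chromosome 17 and one on an unplaced piece of it, both with scores of 47.1 and 39.4. Among the sites with the highest scores, the first by a wide margin was an intergenic site on chr16:86821137-86821453 (mm9) whose nearest start, 533.1 kb away, belonged to N6amt1, a methyltransferase gene. It scored 7200.2 in Scid.adh.2c2 and 4427.8 in ILC2/b6. In ILC2/b6 the next were the Tdrd1 site at 2157.7, a site in the ribosomal RNA gene Rn45s at 1277.4, an intronic site of Wdfy1 at 814.9 and an intronic site of Panx1, a channel gene, at 484.9. In Scid.adh.2c2 the next was a site on (TCTA)n assigned to Cdc42bpa, at 855.8. The Rn45s site followed at 715.4, then sites assigned to Pgp at 714.7 and 4930467E23Rik at 688.6. The part of repeated sequence in these scores was not tested, and the input libraries were not read at these sites.

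By nearest start, 14238 of the sites were assigned to 8316 genes of the expression tables. The genes with most sites were 1700061F12Rik with 26, Hrh1 (a histamine receptor) with 20, LOC100041034 with 16, Mgat5 (a glycosyltransferase) with 15, and Btg1 (an antiproliferative gene) with 14. All 16 sites of LOC100041034 and 15 of the 20 of Hrh1 lay on unplaced chromosome pieces, and each of the 5 Hrh1 sites on chromosome 6 had the same pair of scores as a Hrh1 site on such a piece. Every site of 1700061F12Rik, Mgat5 and Btg1 lay on a placed chromosome. Mgat5 rose in ILC2/b6 from 36.9 and 40.4 RPKM under sgCont to 58.1 and 57.5 under sgBcl11b (0.57 ± 0.05, adjusted p = 0.000661). Its rise in Scid.adh.2c2 (0.25 ± 0.07, adjusted p = 0.0246) lost its call on leaving out either sgBcl11b library (adjusted p = 0.0813 and 0.128) and with median centring (0.156). Btg1 rose by 0.42 ± 0.04 in Scid.adh.2c2 (adjusted p = 0.000165) and fell by 0.24 ± 0.04 in ILC2/b6 (adjusted p = 0.00931).

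1700061F12Rik neighbours Gata3 on chromosome 2, and together these genes held 37 sites over 1.48 Mb (chr2:8320561-9801199, mm9). Gata3 itself had 11 sites, from 0.814 kb before its start to 312.6 kb on the downstream side. The promoter site (chr2:9800883-9801199) scored 57.7 in Scid.adh.2c2 and 53.4 in ILC2/b6, carried a Runx3 peak in Scid.adh.2c2, and had a Bcl11b peak 50 bp away. The site in intron 4 scored 33.4 in Scid.adh.2c2 and 83.1 in ILC2/b6, where it also had a Runx3 peak. The highest in Scid.adh.2c2, at 112.8, lay 300.9 kb away and scored 40.8 in ILC2/b6. The other 8 had no Runx peak, and 2 of the 11 were on (TAGA)n.

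**Figure D4:**
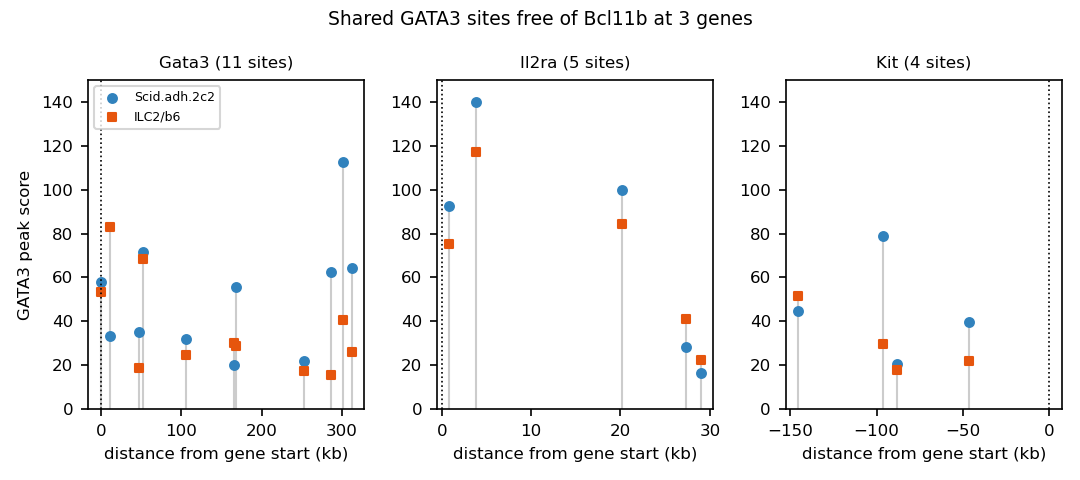
GATA3 peak score (y) of each shared site free of Bcl11b assigned to Gata3, Il2ra and Kit against its distance from the gene start (x, kb, positive on the downstream side), with circles for Scid.adh.2c2 and squares for ILC2/b6. The 11 Gata3 sites reach 312.6 kb from the start, the 5 Il2ra sites lie within 29.0 kb and the 4 Kit sites are all upstream.

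Gata3 mRNA was 54.0 and 57.0 RPKM under sgCont in Scid.adh.2c2 and 63.1 and 66.2 RPKM under sgBcl11b. It was 146.4 and 150.7 RPKM under sgCont in ILC2/b6 and 150.6 and 162.7 under sgBcl11b, so the groups did not overlap in Scid.adh.2c2 and did in ILC2/b6. The log2 difference was 0.22 ± 0.05 (SE) in Scid.adh.2c2 (limma adjusted p = 0.00506), a call that was lost when the libraries were centred on their medians (0.09, adjusted p = 0.142) and without the second guide library (adjusted p = 0.0671). 1700061F12Rik read 0.104 and 0.066 RPKM under sgCont in Scid.adh.2c2 and 0.669 and 0.678 under sgBcl11b, too low to be tested. In ILC2/b6 it read 55.0 and 58.4 RPKM under sgCont and 56.5 and 60.2 under sgBcl11b (log2 difference 0.04 ± 0.05, adjusted p = 0.619).

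Across all genes with a site, changes after the Bcl11b guide were about as frequent as in the whole table. In Scid.adh.2c2, 57.8% of the 10221 tested genes were called at an adjusted p under 0.05, and so were 2290 of the 3974 tested genes with a site (57.6%), of which 1433 rose and 857 fell, against 35.1% of all tested genes that rose and 22.7% that fell. A change of at least 2-fold was called for 357 genes with a site (8.98%), against 8.43% of all. With libraries centred on their medians the split turned to 985 rises and 1480 falls, and over all genes from 3589 rises and 2319 falls to 2466 and 3934. That centring moved the median log2 difference of all tested genes from 0.05 to -0.08. In ILC2/b6, 14.5% of the 10526 tested genes were called, and 676 of the 4211 tested genes with a site (16.1%), with 377 rises (8.95%, against 8.32% of all) and 299 falls (7.10%, against 6.21%), or 277 and 399 with the centring. A change of at least 2-fold was called there for 19 genes with a site (0.451%), against 0.599% of all. In the contrast between lines 45.1% of the 11600 tested genes were called and 45.6% of the genes with a site. These shares lie near the background and say nothing particular about genes with a site. In bulk RNA, a change in the share of cells and a change in RNA per cell cannot be told apart.

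The same shares were read by number of sites and by the presence of a Bcl11b peak. Of 92 tested genes with 6 or more sites, 62 were called in Scid.adh.2c2 (67.4%). The share was 56.5% of those with 1 site, 58.9% with 2 and 58.7% with 3 to 5. In ILC2/b6, 18 of 111 genes with 6 or more sites were called (16.2%). There the share was 15.7% with 1 site, 15.5% with 2 and 18.2% with 3 to 5. For 2950 genes a site was present and no Bcl11b peak of either line was assigned. Of these, 81.2% were under 1 RPKM in at least 1 control library of each line, against 46.7% of all genes with a site and 82.6% of genes with neither a site nor a Bcl11b peak. Of the 499 tested in Scid.adh.2c2, 256 were called (51.3%), and of the 530 tested in ILC2/b6, 53 (10.0%). Genes with neither a site nor a Bcl11b peak had nearly the same shares, 52.7% and 11.1%.

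Among the genes with a site and no assigned Bcl11b peak, the largest rises in Scid.adh.2c2 included 3 genes of the interferon-inducible GTPase family on chromosome 18. Iigp1 read 16.04 and 13.95 RPKM under sgCont and 202.8 and 194.7 under sgBcl11b (log2 difference 3.69 ± 0.07, adjusted p = 4.11e-08). Gm4841 read 1.39 and 1.34 against 38.8 and 36.0, and Gm4951 read 1.89 and 1.48 against 33.8 and 31.5. The 3 genes are near-identical family members in part, so reads could be split between them and their separate values are uncertain. In ILC2/b6 none of the 3 exceeded 0.206 RPKM in any library. Iigp1 had sites at 6.63 and 15.7 kb from its start with Scid.adh.2c2 scores of 57.7 and 20.5. Their ILC2/b6 scores, 17.0 and 16.1, were close to the floor of the list. The Gm4841 site was on MT2_Mm and scored 41.4 in Scid.adh.2c2 and 33.6 in ILC2/b6.

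C4b, a complement component, read 0.077 and 0.102 RPKM under sgCont in Scid.adh.2c2 and 5.26 and 5.34 under sgBcl11b (log2 difference 3.30 ± 0.10, adjusted p = 2.7e-07). Gm8979 read 0.161 and 0.169 against 13.1 and 12.5 (4.32 ± 0.09, adjusted p = 7.66e-08). Of these, the C4b site scored 23.3 in Scid.adh.2c2 and 15.7 in ILC2/b6, close to the floor of the list.

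The largest falls in that set included B230118H07Rik, at 2.91 and 2.73 RPKM under sgCont and 0.466 and 0.506 under sgBcl11b (-1.75 ± 0.10, adjusted p = 7.16e-06). Its site (chr2:101477244-101477560, mm9) scored 148.9 in Scid.adh.2c2 and 39.4 in ILC2/b6 and had Runx1 and Runx3 peaks in Scid.adh.2c2 and a Runx3 peak in ILC2/b6. The same stretch of chromosome 2 holds Rag2, the recombination-activating gene, with 9 assigned sites, the closest 0.691 kb before its start with scores of 70.4 and 81.9 and both Runx factors in ILC2/b6. Rag2 was too low to be tested, at 0.763 and 0.655 RPKM under sgCont in Scid.adh.2c2 and 0.137 and 0.081 under sgBcl11b. 2900079G21Rik, Gm9992 and Cfap157, a cilia-associated gene, fell by 1.52, 1.34 and 1.31 on the log2 scale.

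Gja1, the gap junction protein connexin 43, fell in both lines. It read 14.5 and 16.2 RPKM under sgCont in Scid.adh.2c2 and 6.63 and 6.81 under sgBcl11b (-1.13 ± 0.07, adjusted p = 1.28e-05). In ILC2/b6 it read 15.9 and 13.1 under sgCont and 10.5 and 9.60 under sgBcl11b (-0.50 ± 0.09, adjusted p = 0.0125). Neither line's groups overlapped, and the differences were unequal (interaction 0.63 ± 0.13, adjusted p = 0.00562). Its 5 sites lay 33.3 to 500.7 kb from the start, and the best in ILC2/b6 scored 62.9 against 20.0 in Scid.adh.2c2.

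In ILC2/b6 the largest rises of that set were in low or moderately expressed genes. Itga7, an integrin subunit, read 20.9 and 20.4 RPKM under sgCont and 42.3 and 43.7 under sgBcl11b (1.04 ± 0.04, adjusted p = 2.08e-05), and its site sat on (TCTA)n in intron 1. Gpr162, an orphan receptor gene, rose in both lines, from 0.714 and 0.728 to 1.83 and 2.25 RPKM in ILC2/b6 and from 0.903 and 0.885 to 3.41 and 3.78 RPKM in Scid.adh.2c2. Tnfsf12, a TNF family cytokine, Lpar1, a lysophosphatidic acid receptor, and Copz2, a coat protein gene, rose by 1.18, 1.14 and 0.69 on the log2 scale. Among the falls, Anxa10, an annexin, read 20.7 and 19.7 RPKM under sgCont and 12.7 and 10.6 under sgBcl11b (-0.77 ± 0.08, adjusted p = 0.00128). It had 4 sites, all at least 366.0 kb from any Bcl11b peak. Other genes of the set had a Bcl11b peak closer to a site, at 5.14 kb for Gpr162, 7.33 for Tnfsf12 and 13.5 for Itga7. The smallest gap was 13.98 kb for Ermn, 17.8 for Copz2, 25.04 for Gja1, 59.7 for Bcl2a1a, 92.9 for St14 and 268.5 for Lpar1. Among the genes named for Scid.adh.2c2 it ran from 8.86 kb for Cfap157 to 525.2 for 2900079G21Rik. Having no assigned Bcl11b peak thus does not mean that none lay nearby. Ermn fell by 0.74, St14, a membrane protease, by 0.71 and Bcl2a1a by 0.61. Bcl2a1a is one of several near-identical copies, and its call was lost on leaving out the second sgBcl11b library (adjusted p = 0.145) or either sgCont library (0.0889 and 0.0766).

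**Figure D5:**
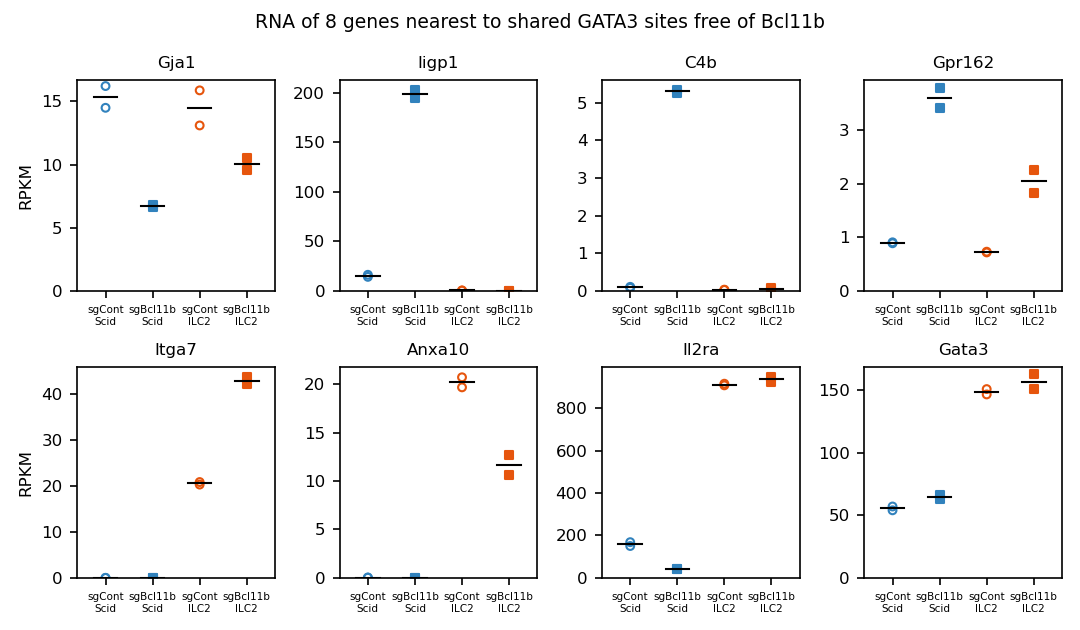
RPKM (y) in each RNA library for 8 genes with a shared GATA3 site free of Bcl11b, with open circles for sgCont, filled squares for sgBcl11b, blue for Scid.adh.2c2, orange for ILC2/b6 and bars for the mean of 2 libraries. Gja1 is lower under sgBcl11b in both lines, Gpr162 is higher in both, and Iigp1 and C4b are higher in Scid.adh.2c2, where they reach 202.8 and 5.34 RPKM.

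Of 22 listed transcription factors, Gata3 and Bcl11b among them, 15 had at least 1 site, with 68 sites in all. Every one of the 15 also had an assigned Bcl11b peak in at least 1 line, as had 5366 of all 8316 genes with a site. Among genes with a site that were tested, it was 3475 of 3974 in Scid.adh.2c2 and 3681 of 4211 in ILC2/b6. Of the 13 tested in Scid.adh.2c2, 6 rose and 3 fell, where 35.1% of all tested genes rose and 22.7% fell, and where the whole list had 9 rises and 5 falls among 19 tested. Of the 13 tested in ILC2/b6, 3 fell, where 6.21% of all tested genes fell and the whole list had 1 rise and 3 falls among 19 tested. With median centring in Scid.adh.2c2, Gata3 lost its rise, and Runx1 (-0.18, adjusted p = 0.0132), Bcl11b (-0.17, adjusted p = 0.00856) and Gfi1 (-0.17) were called as falls. In ILC2/b6 it added falls of Tcf12 (-0.25), Gfi1 (-0.26) and Nfil3 (-0.17). Runx1 had 10 sites, of which 3 were on the tandem repeats and 1 was centred 0.309 kb before a start. Its mRNA read 19.4 and 21.3 RPKM under sgCont in Scid.adh.2c2 and 19.8 and 19.5 under sgBcl11b (-0.05 ± 0.06, adjusted p = 0.487). Runx3 had 5 sites and read 3.07 and 3.28 against 18.0 and 18.2 RPKM in Scid.adh.2c2 (2.34 ± 0.07, adjusted p = 2.58e-07). Ikzf1, a lymphoid zinc finger factor, had 5 intronic sites without a Runx peak, the first on (TAGA)n with scores of 88.1 and 55.6. It rose by 0.62 ± 0.04 in Scid.adh.2c2 (adjusted p = 1.04e-05).

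Tcf7, a factor of early T-cell specification, had a site centred 50 bp before a start (chr11:52096408-52096724, mm9) with scores of 32.4 in Scid.adh.2c2 and 18.3 in ILC2/b6 and a Runx3 peak in Scid.adh.2c2. Its mRNA read 389.1 and 389.9 RPKM under sgCont in Scid.adh.2c2 and 216.0 and 218.1 under sgBcl11b (-0.84 ± 0.04, adjusted p = 2.74e-06). In ILC2/b6 it did not exceed 0.256 RPKM, although GATA3 had a peak there. Lef1, which acts beside Tcf7, had 3 sites 91.0 to 128.2 kb upstream and fell by 2.13 ± 0.08 in Scid.adh.2c2 (adjusted p = 8.07e-07). Tox and Rora, factors of T and ILC2 development, had 5 and 3 sites and rose by 1.13 and 1.56 in Scid.adh.2c2. Ets1, with 2 sites, rose by 0.33 in Scid.adh.2c2 and fell by 0.18 in ILC2/b6, where the call was lost on leaving out either sgBcl11b library (adjusted p = 0.126 and 0.112). Runx2 and Maf, with 5 sites each, fell by 0.33 and 0.38 in ILC2/b6 and were too low to be tested in Scid.adh.2c2.

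Of 22 genes of T-lineage identity, 8 had a site, with 25 sites in all. Each of the 8 also had an assigned Bcl11b peak in at least 1 line, as had 3475 of the 3974 genes with a site tested in Scid.adh.2c2. In Scid.adh.2c2, 5 of the 7 tested fell, 1 rose and 1 was not called, where 22.7% of all tested genes fell and 35.1% rose. The whole list had 11 falls and 6 rises among 18 tested there. Il2ra, the high-affinity IL-2 receptor chain, had 5 sites in intron 1. The strongest (chr2:11568103-11568419, mm9) lay 3.84 kb from the start and scored 140.0 in Scid.adh.2c2 and 117.3 in ILC2/b6, and another at 0.851 kb was on (TAGA)n with 92.4 and 75.3. Il2ra mRNA read 150.3 and 168.4 RPKM under sgCont in Scid.adh.2c2 and 44.3 and 42.8 under sgBcl11b (-1.86 ± 0.06, adjusted p = 3.71e-07). In ILC2/b6 it read 914.9 and 907.2 RPKM under sgCont and 947.2 and 924.8 under sgBcl11b (0.04 ± 0.04, adjusted p = 0.505). GATA3 thus had peaks at the same 5 intronic places in a line where Il2ra fell and in one where no change was called, and the difference between lines was itself called (1.90 ± 0.08, adjusted p = 5.61e-07).

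Dtx1, a Notch target, had 1 site 1.25 kb before its start with scores of 101.6 and 34.0 and fell by 1.77 ± 0.06 in Scid.adh.2c2 (adjusted p = 5.15e-07). Hes1, another Notch target, had 3 sites and fell by 0.87 in that line. In ILC2/b6 Hes1 rose by 0.29 ± 0.07 (adjusted p = 0.0313), a call lost on leaving out the first sgBcl11b library (adjusted p = 0.183) or either sgCont library (0.0526 and 0.0641). Il7r, the IL-7 receptor chain, had 3 sites, 2 of them on tandem repeats, and fell by 0.92. The Lck site, on (TAGA)n and 5 bp from a Bcl11b peak, scored 76.1 and 66.6, and Lck, a kinase of T-cell receptor signalling, fell by 0.78. Cd28, a costimulatory receptor, had 1 site at the floor of both lists, 15 in ILC2/b6, and rose by 1.30. Cd3e, a chain of the T-cell receptor complex, had a site 0.911 kb before its start with scores of 129.7 and 47.3 and with Runx peaks in both lines. Its mRNA read 172.9 and 173.7 RPKM under sgCont in Scid.adh.2c2 and 172.5 and 174.4 under sgBcl11b.

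Of 19 genes of ILC2 identity and effector function, 10 had a site, with 17 sites in all. Each of the 10 also had an assigned Bcl11b peak in at least 1 line, as had 3681 of the 4211 genes with a site tested in ILC2/b6. In ILC2/b6, 2 of these 10 rose, 2 fell and 6 were not called, where 14.5% of all tested genes were called. The whole list had 2 rises and 4 falls among 17 tested there. The Il13 site (chr11:53476626-53476942, mm9), in an intron of Rad50, scored 22.1 in Scid.adh.2c2 and 124.9 in ILC2/b6, had both Runx factors in ILC2/b6 and lay 9 bp from a Bcl11b peak. Il13, a type 2 cytokine, read 4472 and 4406 RPKM under sgCont in ILC2/b6 and 3025 and 3151 under sgBcl11b (-0.52 ± 0.04, adjusted p = 0.000487). In Scid.adh.2c2 it read 2.21 and 0.816 RPKM under sgCont and 7.65 and 8.43 under sgBcl11b (2.18 ± 0.29, adjusted p = 0.000633). Il5, another type 2 cytokine, had 1 site at 6.03 kb with scores of 42.7 and 20.5 and fell by 0.56 in ILC2/b6. Both falls lost their call when the 8 libraries were fitted together (adjusted p = 0.244 for Il13 and 0.0706 for Il5).

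Icos, a costimulatory receptor, had 4 sites over 149.9 kb, scoring up to 83.9 in Scid.adh.2c2 and 69.5 in ILC2/b6, and rose by 0.45 in ILC2/b6. Klrg1, an inhibitory receptor, had 1 site on an L1 element and rose by 1.45 in Scid.adh.2c2 and by 0.18 in ILC2/b6, the latter a call lost on leaving out either sgBcl11b library (adjusted p = 0.0977 and 0.0949). Arg1 (arginase) and Csf2 (the cytokine GM-CSF) had 2 sites each and rose by 3.99 and 3.65 in Scid.adh.2c2. In ILC2/b6 Arg1 read 120.6 and 119.9 RPKM under sgCont and 121.4 and 121.4 under sgBcl11b. Il10 and Il9r, an anti-inflammatory cytokine and a cytokine receptor, had 1 site each, scoring 21.4 and 22.7 in Scid.adh.2c2, and in that line fell by 1.58 and 1.25.

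Of 15 genes of progenitors and other lineages, 7 had a site, with 11 sites in all, and none was expressed highly enough in Scid.adh.2c2 to be tested. Of the 7, 2 had no assigned Bcl11b peak in either line, against 2950 of all 8316 genes with a site. Kit, the stem cell factor receptor, had 4 sites 46.5 to 145.4 kb upstream with Scid.adh.2c2 scores of 20.5 to 78.7. It read 0.049 and 0.039 RPKM under sgCont in Scid.adh.2c2 and 20.0 and 19.8 RPKM under sgCont in ILC2/b6, from tables normalized apart. With the guide it read 18.5 and 19.4 RPKM in ILC2/b6 (-0.07 ± 0.04, adjusted p = 0.357).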

How the data were processed

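Per the labels' protocols, ChIP-seq used DSG followed by formaldehyde, with single-end reads of 50 nt. The authors deposited 8 peak lists with a HOMER peak score per interval, and 2 tables of RPKM values for 24475 genes, 1 per line. Per the file headers, peaks were annotated on mm9, each list coming from 2 libraries together, so peaks have no replicate spread. The deposited lists also hold a fraction, HOMER's focus ratio, which was not used for any result. Per the submitters' processing notes, the tools included Bowtie 1.1.1, HOMER, STAR 2.4.0, RSEM 1.2.25 and edgeR 3.6.8; their roles are not given. The 8 input libraries were not used here. Their titles name FA inputs and DSG inputs in each line. In the order of the samples, FA inputs follow the GATA3 libraries and DSG inputs follow those of Bcl11b and Runx. No title pairs an input with a factor, so a common fixation for all factors rests on the protocol text alone. The part of fixation in the overlaps of GATA3 with Bcl11b and Runx peaks was not tested.

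Overlaps of at least 1 bp were computed in Python 3.11.15 and checked against bedtools 2.31.1. A gene entered the test of a line when 2 or more of its 4 libraries reached 1 RPKM. The test was limma 3.58.1 (R 4.3.3, trend option) on log2(RPKM + 0.5), adjusted by Benjamini-Hochberg over all tested genes, with a call at 0.05. The added constant makes fold changes of low genes too small. The difference between lines is the limma interaction over 8 libraries, ILC2/b6 minus Scid.adh.2c2. The tables were normalized apart, so levels were tested only within a table. All adjusted p-values come from these limma fits. Read totals were chosen as those that best turned low RPKM values into whole reads. With them all these values were whole within 0.1 read plus the rounding error, which is not a separate check.

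Named genes were the 10 with most sites, the nearest genes of the 10 highest peaks per line, the 5 largest called rises and falls per line among genes with a site and no assigned Bcl11b peak, and listed genes with a site. A selection of these is given. The members and the gene lists were chosen with earlier results of these data known. A site was assigned to the nearest start in the authors' annotation, which does not show which gene it acts on. Alternatives covered score and distance thresholds, overlap, scaling, filters, the pseudocount and leaving out libraries.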

Additional observations from a re-analysis of the deposited data

Results flagged for a closer look

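A selection of 58 of the named genes was followed here, of which 57 could be fitted over all 8 libraries. The effect of the Bcl11b guide differed between the lines for 47 of them, by the limma interaction at an adjusted p under 0.05. Of all tested genes 45.1% passed. Among named genes outside the selection, Rn45s, Pgp, 6820431F20Rik, Zfp207, Ssh2, Ccr4 and Hhex could be fitted and did not pass, while Ccr8 passed. Values are the log2 difference in ILC2/b6 minus that in Scid.adh.2c2, and the adjusted p ran from 3.58e-08 to 0.032. For the listed transcription factors, the difference was -2.37 for Runx3, 1.03 for Tcf7, 2.10 for Lef1, -0.51 for Ets1, -0.60 for Ikzf1, -1.16 for Tox, -1.77 for Rora, -0.43 for Runx2, 0.29 for Tcf12 and -0.34 for Maf. For genes of T-lineage identity, the difference was 1.90 for Il2ra, 0.86 for Il7r, 0.64 for Lck, 1.77 for Dtx1, 1.16 for Hes1 and -1.23 for Cd28. For the ILC2 genes, the difference was -2.70 for Il13, -3.98 for Arg1, -1.27 for Klrg1, -3.77 for Csf2, 1.52 for Il10 and 1.15 for Il9r. For genes with a site and no assigned Bcl11b peak that were named for Scid.adh.2c2, the difference was 0.63 for Gja1, -3.76 for Iigp1, -4.33 for Gm4841, -3.88 for Gm4951, -4.09 for Gm8979, -3.22 for C4b, 1.84 for B230118H07Rik, 1.52 for 2900079G21Rik, 1.37 for Gm9992 and 1.38 for Cfap157. For genes named for ILC2/b6, the difference was 1.03 for Itga7, 1.20 for Tnfsf12, 1.11 for Lpar1, -0.50 for Gpr162, 0.73 for Copz2, -0.69 for Anxa10, -0.77 for Ermn, -0.76 for St14 and -0.61 for Bcl2a1a. For genes named for the number or height of their sites, and Kit, the difference was -0.66 for Btg1, 0.33 for Mgat5, -0.97 for 1700061F12Rik, -0.86 for Wdfy1, 0.33 for Panx1 and -0.35 for Kit. Many of these genes were chosen for the size of their change in 1 line, so a difference between lines was favoured by the choice. A gene entered this fit when it passed the filter in either line. Tcf7, Dtx1, Iigp1 and C4b, among others, were too low to be tested in ILC2/b6, as were Itga7, Anxa10 and Kit in Scid.adh.2c2. For such genes the difference mainly restates the change in 1 line. The value for 1700061F12Rik rests on Scid.adh.2c2 levels of at most 0.678 RPKM.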

How the results depend on the processing

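Limits: each peak list pools 2 libraries, so no peak share has a replicate error, and 5893 sites lay near the score floor of a list. Requiring both GATA3 scores of at least 30 left 3634 sites, with 8.04% at promoters and a Runx peak at 4.62% in Scid.adh.2c2 and 16.8% in ILC2/b6. Requiring no Bcl11b peak within 1 kb gave 1.97%, 2.31% and 9.08% for the same 3 shares. Without the (TCTA)n, (TAGA)n and MT2_Mm sites, an alternative chosen after seeing the data, they were 5.91%, 3.41% and 11.6%. Runx shares were 2.16% and 8.33% with 50% of the site covered, and 9.43% and 20.6% with a Runx peak within 1 kb. Promoter shares were 2.09% within 500 bp and 11.2% within 2.5 kb. These alternatives change by construction which sites or peaks count.

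Leaving out 1 library moved the calls in Scid.adh.2c2 between 3760 and 6878 over all genes and between 1476 and 2709 among genes with a site, with both lows on leaving out a guide library. In ILC2/b6 they moved between 807 and 2099 and between 343 and 896, and in the contrast between lines between 4049 and 5301. With no expression filter ILC2/b6 had 615 calls and 262 among genes with a site, with more genes tested. Sites within 10 kb gave 1233 and 333 calls in Scid.adh.2c2 and ILC2/b6, and genes with no Bcl11b peak of the same line 409 and 92, from fewer genes. Counting each gene of the selection of 58 once in each line, 12 results lost a call and 10 gained one under at least 1 alternative, and no called direction reversed. The differences between lines were not followed gene by gene under the alternatives. With no expression filter, ILC2/b6 calls were lost for Btg1, Gja1, Bcl2a1a, Runx2, Ets1, Hes1 and Icos.

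The replicate numbers give no origin, and deviations of same-numbered libraries correlated at 0.037 in Scid.adh.2c2 and 0.11 in ILC2/b6. With a replicate block the calls among genes with a site were 2302 and 956, and 5921 and 2258 over all genes.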
